A study of Mus musculus with 68 samples.

Results

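Pharyngeal arches 1 and 2 (PA1 and PA2) were compared in mouse embryos labelled Hoxa2-/- at E9.0, to describe what parts the arches at this stage under that label. The comparison takes 8 of the 68 libraries of the study, all those with this label and stage: 4 of PA1 and 4 of PA2, chosen by label alone. An equal replicate number marks arches from the same embryo, so the 8 libraries come from 4 embryos. All embryos are of the mixed strain background CBA/Ca/J x C57BL/10. Hoxa2-/- names a homozygous genotype, and the labels do not describe the allele. The reference groups are wildtype PA1 (5 libraries) and PA2 (4 libraries) at E9.0, and PA1 and PA2 labelled Hoxa2-/- at E9.5 (5 libraries each). Each library was made from polyadenylated RNA of a hand-dissected arch, so it mixes ectoderm, endoderm, mesoderm and neural crest.

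The pharyngeal arches are paired bulges on the sides of the embryonic head and neck, with an outer ectoderm, an inner endoderm that folds into pouches, and a core of mesoderm and neural crest. PA1 forms the jaws and is filled by neural crest that expresses no Hox genes, whereas PA2 is filled by crest that expresses Hoxa2. Hoxa2 is a homeodomain transcription factor that acts as the selector of PA2 identity, and PA2 crest that lacks it makes skeletal elements of PA1 type. Ectoderm, endoderm and mesoderm of the arches carry their own regional programs, many of which do not depend on the crest.

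The values are CPM, read counts relative to library sizes that the authors scaled, and 1 read can be recovered as a fixed step in each library. The 8 libraries held 10421916 to 16217111 recovered reads, and 3 reads were worth 0.189 to 0.299 CPM. Levels below that are at the limit of counting.

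Hoxa2 itself went against the knockout label as far as its transcript is concerned. In PA2 the libraries labelled Hoxa2-/- had 16.8, 32.0, 36.3 and 29.6 CPM in embryos 1 to 4, while wildtype PA2 had 22.3 ± 1.40 CPM (SD, n = 4). In PA1 the values were 0, 0, 0.398 and 0.0631 CPM. All 4 PA2 libraries thus had Hoxa2 transcript at or near the wildtype level, and all 4 PA1 libraries were near 0. Such a total over the gene shows neither the state of the allele nor whether protein was made, so it checks the arch labels and not the genotype, and the groups are called by their label throughout. Hoxa2 (chromosome 6, 52162417 to 52164831, minus strand, GRCm38) had the largest difference between the arches of all genes named by the rule, 4.70 (SE 0.18) on the log2(CPM + 1) scale (adjusted p = 1.1e-29, limma).

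Sex-linked transcripts matched within each embryo number: Xist was at 0 to 0.341 CPM in both arches of embryos 1 and 4 and at 18.0 to 38.8 CPM in both arches of embryos 2 and 3. Sex was therefore balanced between the arches.

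A single PA2 library, that of embryo 3, stood apart. Chi-square per degree of freedom between its reads and those of the other PA2 libraries was 32.9 to 48.2, against 8.96 to 19.5 among the others and 6.34 to 9.76 among the PA1 libraries. Summed over 12 yolk sac endoderm genes it had 515 CPM, against 6.33 to 23.0 CPM in the other PA2 libraries and 6.36 to 24.9 CPM in PA1. Its sum over 18 cardiac contractile genes was 178 CPM, against 863 to 1510 CPM in the other PA2 libraries. The PA1 library of the same embryo had 106 CPM of these cardiac genes, against 47.3 to 48.5 CPM in the other PA1 libraries. It was also the highest of the 4 PA1 libraries for 14 of the 15 genes with the largest difference toward PA2. In wildtype PA2, replicate 2 also had few reads of these genes, at 99.6 CPM, against up to 1721 CPM in the others, and it had 75970 CPM of red cell genes. Several results that rest on embryo 3 are given with and without it below.

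**Figure D1:**
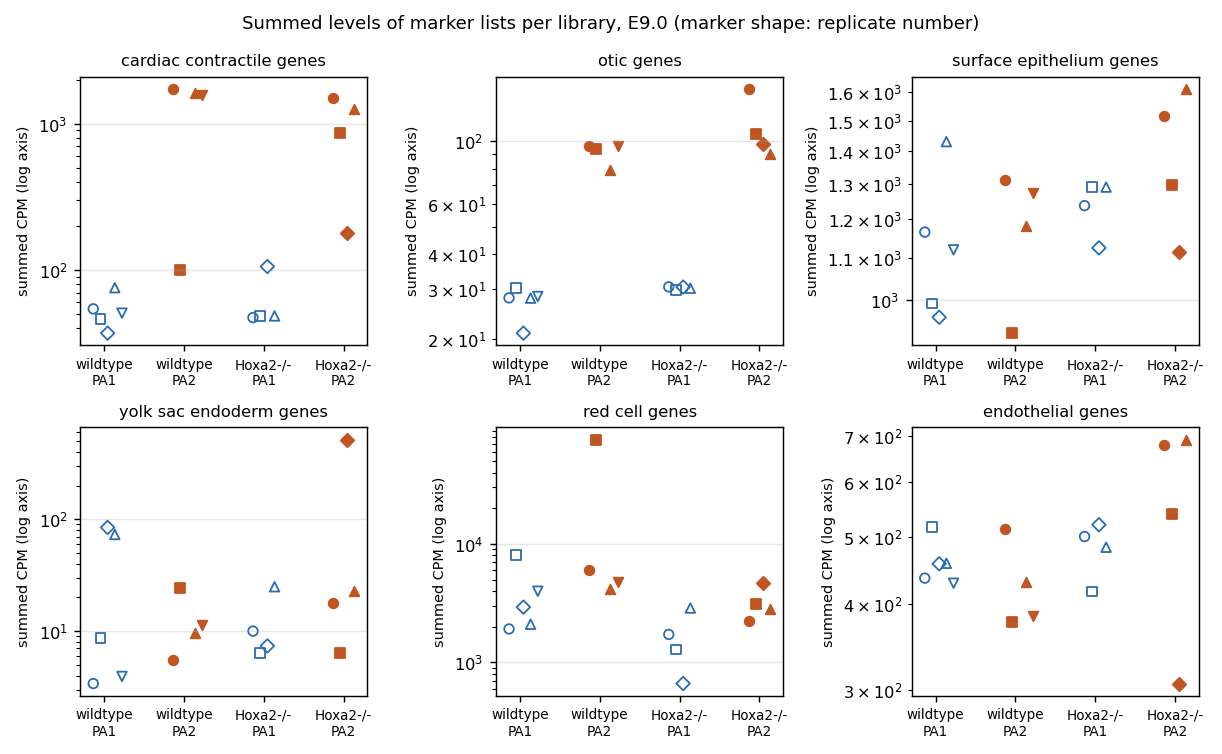
Summed CPM (log axis) of 6 marker lists in each E9.0 library, with wildtype and Hoxa2-/- labels side by side, open symbols for PA1, filled symbols for PA2 and the shape giving the replicate number. Cardiac and otic sums are higher in every PA2 library labelled Hoxa2-/- than in every PA1 library, while the yolk sac sum of 515 CPM belongs to the PA2 library of embryo 3 alone.

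Across 18428 genes tested, 4527 differed between the arches (24.6%), of which 2229 were higher in PA2 (12.1%) and 2298 lower (12.5%). The test was limma on log2(CPM + 1), fitted to all 68 libraries with a mean for each group, and "called" below means an adjusted p of at most 0.05. The 4 embryos are separate animals. The p-values of this fit rest on a spread pooled over the 16 groups of all 68 libraries. They do not pair the arches of an embryo. The median difference of all genes tested was -0.01 and the median size of the called differences was 0.56, so most calls were small. Differences of at least 1 on the log2 scale numbered 602 (3.27%): 461 genes were higher in PA2 (2.5%) and 141 lower (0.765%). The 4 libraries of each arch did not overlap for 3178 genes (17.2%), with PA2 above PA1 for 1788 (9.7%) and below it for 1390 (7.54%). When only the 8 compared libraries entered the fit, 1110 genes were called (6.02%), 827 higher (4.49%) and 283 lower (1.54%), and counts from that fit are given below where they differ by over 1.5 times. With the embryo as a block 5902 genes were called (32%), and edgeR called 4096 (22.2%). Since the libraries are bulk tissue, fewer cells of a type and less RNA per cell cannot be told apart.

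The 30 genes described next are the 15 in each direction with the largest differences among called genes that had the same sign in all 4 embryos and a mean of at least 5 CPM in the higher arch. That rule leaves out genes such as Actc1 and Barx1, whose difference did not have the same sign in all 4 embryos. Toward PA2 they were Hoxa2, the endodermal and otic regulators Nkx2-6 and Pax8, the FGF ligand genes Fgf3, Fgf4 and Fgf15, the receptor gene Ret, the carbonic anhydrase gene Car7 and 7 genes of the sarcomere and its assembly. Toward PA1 they included the homeobox gene Pitx1, the non-coding RNA Dlx6os1, the retinoic acid hydroxylase gene Cyp26c1, the epidermal genes Trp63, Krt14 and Fam83f, the guidance genes Sema3e, Ntn1 and Epha3, and Mab21l1, Adamts18, Tal2, Ndst3 and Dnm3os. The libraries of the arches did not overlap for 15 of the 15 genes toward PA2 and for 13 of the 15 toward PA1, the exceptions being Mab21l1 and Epha3. The rule favours such separation, so these counts only describe the genes it chose. With only the compared libraries in the fit, those 2 were no longer called (adjusted p = 0.087 and 0.12, limma).

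**Figure D2:**
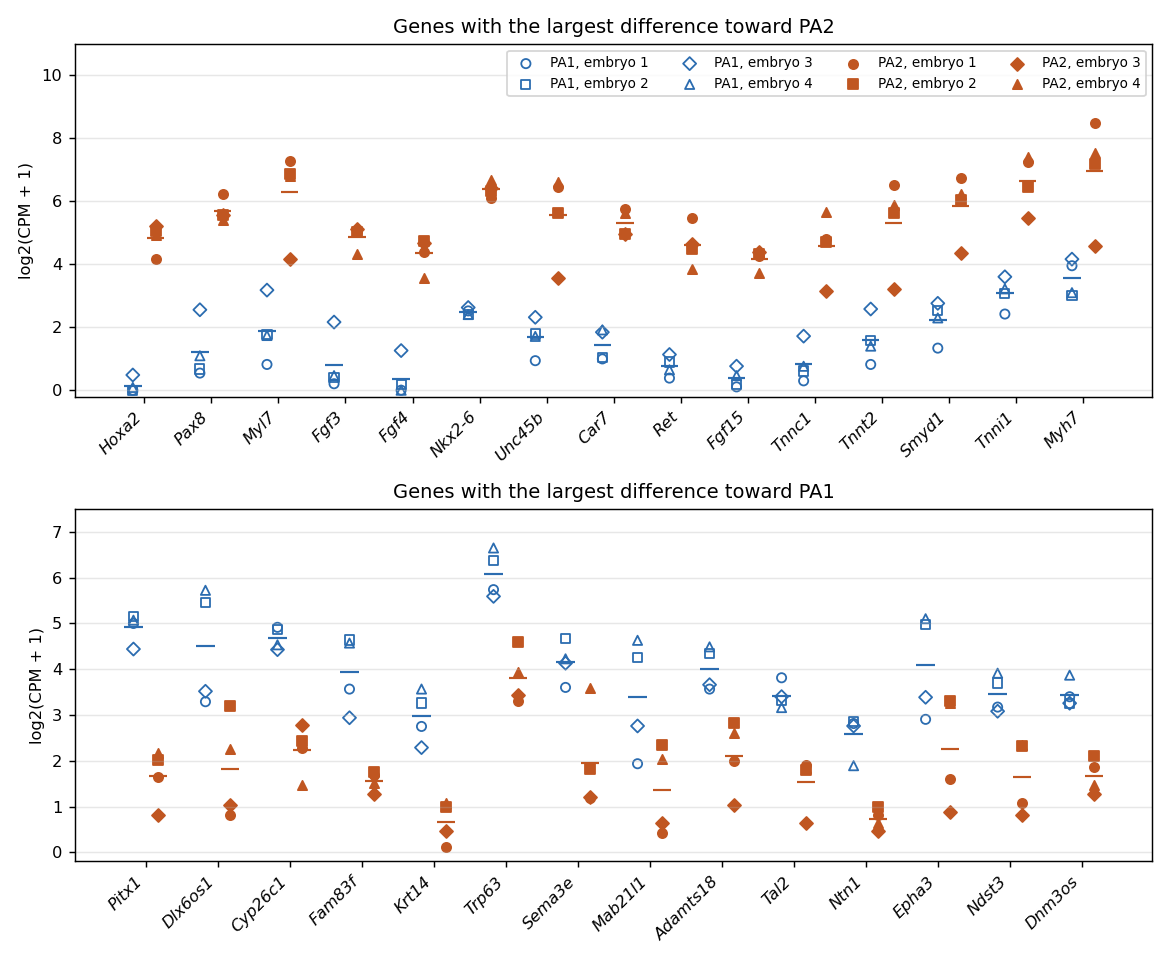
Values of 29 of these genes in each of the 8 libraries as log2(CPM + 1), with open symbols for PA1, filled symbols for PA2, the shape giving the embryo and short lines the mean of 4 libraries. The arches do not overlap for any gene in the upper panel, the diamond of embryo 3 is the highest PA1 symbol for 14 of 15 genes there, and in the lower panel PA1 of embryos 2 and 4 lies above PA1 of embryos 1 and 3 for 10 of 14 genes.

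Promoter sequences are shown for some of the genes that part the arches most and have an entry in the RefSeq table (GRCm38.p6). Each covers 250 bases before and 50 after the annotated start, 5′ to 3′ on the gene's strand. Hoxa2 is shown as the gene whose transcript is at the base of the comparison, Pax8, Fgf3 and Fgf4 as genes near 0 in PA1, and Cyp26c1 and Krt14 as genes high in PA1. Capitals mark matches on either strand to TGATNNAT, a bipartite site of Hox proteins with Pbx, and to CTGTCA, a site of Meis proteins.
Hoxa2, chr6:52164782-52165081, minus strand: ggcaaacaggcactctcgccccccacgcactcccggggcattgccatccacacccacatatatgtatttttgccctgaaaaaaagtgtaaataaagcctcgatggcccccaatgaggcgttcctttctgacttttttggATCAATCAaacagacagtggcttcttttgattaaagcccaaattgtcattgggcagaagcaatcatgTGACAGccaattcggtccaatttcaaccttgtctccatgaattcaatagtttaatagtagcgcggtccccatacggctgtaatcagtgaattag
Pax8, chr2:24475550-24475849, minus strand: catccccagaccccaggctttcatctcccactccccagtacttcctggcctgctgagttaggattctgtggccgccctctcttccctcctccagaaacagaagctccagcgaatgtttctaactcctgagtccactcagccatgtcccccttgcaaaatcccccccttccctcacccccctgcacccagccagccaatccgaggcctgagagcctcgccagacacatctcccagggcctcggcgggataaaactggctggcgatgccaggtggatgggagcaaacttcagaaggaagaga
Fgf3, chr7:144838362-144838661, plus strand: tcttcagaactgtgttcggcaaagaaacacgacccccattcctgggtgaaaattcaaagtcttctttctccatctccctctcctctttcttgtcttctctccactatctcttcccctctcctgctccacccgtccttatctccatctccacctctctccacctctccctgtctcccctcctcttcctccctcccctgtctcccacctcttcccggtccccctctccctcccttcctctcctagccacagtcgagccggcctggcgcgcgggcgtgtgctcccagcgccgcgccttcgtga
Fgf4, chr7:144861136-144861435, plus strand: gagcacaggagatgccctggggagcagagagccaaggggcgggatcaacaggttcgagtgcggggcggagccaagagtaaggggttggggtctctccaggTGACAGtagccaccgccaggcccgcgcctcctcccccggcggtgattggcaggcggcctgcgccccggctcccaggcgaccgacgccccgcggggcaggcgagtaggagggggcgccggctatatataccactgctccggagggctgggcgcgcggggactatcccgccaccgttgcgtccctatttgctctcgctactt
Cyp26c1, chr19:37685430-37685729, plus strand: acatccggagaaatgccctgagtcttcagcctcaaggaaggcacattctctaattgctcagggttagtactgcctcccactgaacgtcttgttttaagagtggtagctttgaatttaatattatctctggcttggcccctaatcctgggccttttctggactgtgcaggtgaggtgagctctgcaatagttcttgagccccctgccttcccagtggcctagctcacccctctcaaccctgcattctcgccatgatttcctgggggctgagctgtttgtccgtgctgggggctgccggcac
Krt14, chr11:100205981-100206280, minus strand: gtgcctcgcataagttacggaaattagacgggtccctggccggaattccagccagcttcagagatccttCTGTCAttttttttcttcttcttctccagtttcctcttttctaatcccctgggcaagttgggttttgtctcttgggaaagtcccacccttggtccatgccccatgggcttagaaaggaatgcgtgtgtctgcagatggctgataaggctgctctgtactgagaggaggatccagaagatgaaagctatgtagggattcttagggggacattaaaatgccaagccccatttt
The Hoxa2 window held 1 match to each motif, and the windows of Fgf4 and Krt14 held 1 match to the Meis letters. Those of Pax8, Fgf3 and Cyp26c1 held none. Windows of Myl7 and Dlx6os1, which part the arches more than some genes shown, are not shown and also held none. Of 32851 windows of this length in the table, 8.85% held the Hox-Pbx letters and 19.2% the Meis letters, so a match is common and describes the letters only. Windows were found for 82 of the 118 genes named by the rule.

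The arch markers Nkx2-6, Pax1 and Pitx1 separated the arches in every embryo. Nkx2-6, a homeobox gene of pharyngeal endoderm and outflow tract, had 4.73, 4.30, 5.18 and 4.29 CPM in PA1 of embryos 1 to 4 and 67.7, 78.5, 84.9 and 101 CPM in PA2. Pax1, a paired-box gene of the pouches, had 11.3, 17.3, 20 and 13.4 CPM in PA1 and 77.2, 70.6, 55.9 and 50.5 CPM in PA2. Pitx1, a homeobox gene of the jaw-forming arch, had 31.0, 34.6, 20.7 and 32.6 CPM in PA1 and 2.13, 3.04, 0.757 and 3.51 CPM in PA2. For each of the 3 genes the libraries of the arches did not overlap. The log2 differences were 3.89 (SE 0.32, adjusted p = 2.1e-14) for Nkx2-6, 1.98 (SE 0.29, adjusted p = 5.1e-07) for Pax1 and -3.25 (SE 0.31, adjusted p = 3.5e-12) for Pitx1 (limma).

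Anterior Hox genes were on in PA2 and near 0 in PA1. Of 9 Hox genes and Hox antisense RNAs tested, 7 were called higher in PA2 and none lower, with a median log2 difference of 1.78. The same 7 of 9 were not overlapping between the arches. Of all genes tested, 12.1% were called higher, 12.5% were called lower and 9.7% had all PA2 libraries above all PA1 libraries. A gene this low in PA1 enters the test through libraries where it is higher, and could hardly be called lower. The direction of these counts was thus largely set in advance. Hoxb2, a direct neighbour of Hoxb1 in its cluster and a paralog of Hoxa2, had 0.252 to 0.597 CPM in PA1 and 4.60 to 7.57 CPM in PA2 (log2 difference 2.40, SE 0.16). Hoxb1, which marks the hindbrain segment that feeds PA2 and the tissue behind it, had 0.0763, 0, 1.19 and 0.315 CPM in PA1 and 7.84, 3.78, 5.02 and 8.40 CPM in PA2 (2.40, SE 0.27). Hoxa3, the selector of more posterior arches, had 0, 0, 0 and 0.126 CPM in PA1 and 1.02, 2.87, 2.56 and 1.38 CPM in PA2 (1.47, SE 0.14).

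The antisense RNA Hoxaas2 was read in a single PA1 library, at 0.0662 CPM, and had 4.86 to 6.98 CPM in PA2 (log2 difference 2.73). Hoxb3os had 0 to 0.199 CPM in PA1 and 2.22 to 3.04 CPM in PA2 (1.71). Hoxb3os overlaps Hoxb2 on the other strand in GENCODE M21, Hoxaas2 overlaps Hoxa3 in the same way, and the strand setting of the count is not given in the sources used here, so the reads of each partner are uncertain. Hoxb5 and Hoxd1 were not called (log2 differences 0.36 and 0.13). Because PA1 is close to 0 for these genes, the size of each difference depends on the 1 CPM added before taking the log.

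The 11 TALE genes encode the Pbx, Meis and Pknox partners of Hox proteins and the related Tgif proteins. Of these, 3 were called higher and 1 lower (5 and 1 with the embryo block), with a median of -0.03. The shares of all genes tested were 12.1% and 12.5%. Meis1 stood out: PA1 had 27.8, 37.2, 29.3 and 42.8 CPM and PA2 had 118, 98.3, 92.6 and 106 CPM (log2 difference 1.59, SE 0.15, adjusted p = 4.2e-12, limma). No PA1 library came near the lowest PA2 library. Meis3 was higher by 0.74, Pbx4 by 0.59 and Pknox2 lower (-0.54), and the last 2 were not called in the fit of the compared libraries (adjusted p = 0.12 and 0.064, limma).

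Fgf3, Fgf4 and Fgf15, which encode secreted growth factors used between pouch endoderm, ectoderm and neighbouring tissue, were near 0 in PA1 and on in PA2. Fgf3 had 0.153, 0.331, 3.48 and 0.378 CPM in PA1 of embryos 1 to 4 and 31.8, 31.8, 33.6 and 19.0 CPM in PA2. Fgf4 had 0, 0.132, 1.39 and 0 CPM in PA1 and 19.8, 26, 24.7 and 10.9 CPM in PA2. Fgf15 had 0.0763, 0.132, 0.697 and 0.378 CPM in PA1 and 18.3, 19.2, 19.8 and 12.1 CPM in PA2. In all 3 genes PA1 of embryo 3 was the highest PA1 library and PA2 of embryo 4 the lowest PA2 library, and the arches did not overlap. The log2 differences were 4.07 (SE 0.29), 3.99 (SE 0.32) and 3.80 (SE 0.28), with adjusted p of 2.7e-16, 2.1e-14 and 3.0e-16 (limma).

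These 3 genes lie side by side on chromosome 7 of GRCm38, on the plus strand: Fgf3 at 144838083 to 144844436, Fgf4 at 144847367 to 144865243 and Fgf15 at 144896531 to 144900953. The nearest tested genes on one side, Bc1, LTO1 and Ccnd1, were not called, with log2 differences of -0.77, 0.19 and -0.13. On the other side, Ano1, a chloride channel gene, was called higher in PA2 by 1.32 (adjusted p = 0.00084), though not in the fit of the compared libraries (adjusted p = 0.062, limma). Gm26793, which overlaps Fgf15 on the opposite strand, was called higher by 0.77, and its reads cannot be told from those of Fgf15 without the strand setting.

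Among 15 FGF ligand genes tested, 10 were called higher in PA2 and none lower, beside 12.1% and 12.5% of all genes. Their median was 0.61, and the fit of the compared libraries called 7 higher and none lower. Fgf3, Fgf4 and Fgf15, near 0 in PA1, could hardly be called lower. The others included Fgf1 (1.51), Fgf18 (1.22), Fgf9 (0.98), Fgf8 (0.72) and Fgf10 (0.47). Fgf8, a key signal of the oral and pouch epithelium, had 15.7 to 26.7 CPM in PA1 and 29.4 to 42.3 CPM in PA2. Of 19 FGF receptor and response genes, 8 were called higher and 3 lower, beside 12.1% and 12.5% of all genes. Their median was 0.21. The counts were 3 and 1 in the fit of the compared libraries and 6 and 1 without PA2 of embryo 3. Etv4, a transcription factor gene induced by FGF signalling, had 5.56 to 7.67 CPM in PA1 and 10.8 to 22.0 CPM in PA2 (log2 difference 1.23, SE 0.20). The feedback inhibitor genes Spry1 and Spry2 were higher by 0.86 and 0.72, the second of them not in the fit of the compared libraries (adjusted p = 0.11, limma). Flrt3, which encodes a membrane protein that binds FGF receptors, was lower (-0.84), with 222 to 243 CPM in PA1 and 90.6 to 191 CPM in PA2.

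Genes listed for pharyngeal pouch and endoderm were mostly higher in PA2, and some, such as Isl1 and Tbx1, are also listed for mesoderm. Of 24 pharyngeal pouch and endoderm genes tested, 15 were called higher and none lower, beside 12.1% and 12.5% of all genes. Their median was 0.69, and 11 had all PA2 libraries above all PA1 libraries, against 9.7% of all genes. In the fit of the compared libraries 10 were called. Nkx2-1, the regulator of thyroid and lung bud, had 0.0763, 0.0662, 0.0996 and 0.378 CPM in PA1 and 8.35, 6.74, 0.568 and 9.78 CPM in PA2. PA2 of embryo 3 was far below the other 3, and the difference was 2.36 with that library and 3.00 without it. Isl1, a LIM homeobox gene of pharyngeal endoderm and second heart field, had 29.2 to 39.4 CPM in PA1 and 103 to 180 CPM in PA2 (1.96, SE 0.18, adjusted p = 7.1e-13, limma). Pax9 had 1.99 to 4.35 CPM in PA1 and 9.09 to 14.9 CPM in PA2 (1.64), and Foxe1, a thyroid and oral regulator, had 12.5 to 21.0 and 20.9 to 62.4 CPM (1.22). Tbx1, the regulator of pouch outgrowth and of arch mesoderm, had 19.7 to 32.8 and 50.5 to 84.3 CPM (1.28).

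Pax8, a paired-box gene of otic placode and thyroid, had 0.458, 0.596, 4.88 and 1.14 CPM in PA1 and 75, 46.2, 46.7 and 41.7 CPM in PA2 (log2 difference 4.48, SE 0.55, adjusted p = 1.0e-08, limma). Ret, the receptor of the GDNF family, had 0.305, 0.861, 1.19 and 0.568 CPM in PA1 and 43.2, 21.5, 23.8 and 13.3 CPM in PA2 (3.84, SE 0.31). Car7 had 0.992, 1.06, 2.59 and 2.78 CPM in PA1 and 53.1, 30.1, 30.1 and 48.2 CPM in PA2 (3.87, SE 0.50). In each of the 3 genes the lowest PA2 library was many times above the highest PA1 library. Pax8 is also in the list of otic genes, whose summed level was 29.9 to 30.6 CPM in PA1 and 90.1 to 152 CPM in PA2. Of the 6 otic genes tested, 3 were called higher, Pax8, Gbx2 (2.61) and Gata3 (0.99), and Otx1 was called lower (-0.94). The shares of all genes were 12.1% called higher and 12.5% lower. In the fit of the compared libraries 3 were called higher and none lower. The part of otic tissue in these results was not tested.

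BMP pathway genes leaned toward PA2. Of 22 tested, 11 were called higher and 1 lower, beside 12.1% and 12.5% of all genes, with a median of 0.56. The fit of the compared libraries called 9 higher and 1 lower. The ligand gene Bmp4 had 25.5, 22.2, 28.3 and 23.5 CPM in PA1 and 88.8, 64.1, 46.0 and 92.0 CPM in PA2 (log2 difference 1.46, SE 0.27), and Bmp2 had 3.84 to 6.37 and 9.09 to 21.5 CPM (1.35). The arches did not overlap for either ligand. Among targets and modulators, Id4 was higher by 1.61, the receptor-activated transducer gene Smad9 by 1.29, the decoy receptor gene Bambi by 1.07 and the inhibitor gene Smad6 by 1.01. Bmpr1b, which encodes a receptor, was the member called lower (-0.97), with 15.5 to 23.2 CPM in PA1 and 5.58 to 12.7 CPM in PA2.

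Retinoic acid genes differed in both directions. The 3 Cyp26 genes encode enzymes that degrade retinoic acid, and 2 of them differed in opposite directions. Cyp26c1 had 29.2, 28.3, 20.5 and 22.1 CPM in PA1 and 3.83, 4.44, 5.87 and 1.75 CPM in PA2 (log2 difference -2.45, SE 0.37, adjusted p = 1.5e-06, limma). Cyp26b1 had 1.15, 0.993, 0.996 and 0.442 CPM in PA1 and 7.93, 8.38, 7.76 and 3.88 CPM in PA2 (2.05, SE 0.25, adjusted p = 1.1e-08, limma). The arches did not overlap for either, and Cyp26a1 was not called (-0.40).

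Rdh10, which makes the precursor of retinoic acid, was higher in PA2 by 1.17 (12.5 to 16.6 CPM in PA1 and 29.0 to 36.0 CPM in PA2), as were the binding protein genes Crabp2 and Crabp1 (0.96) and the receptor gene Rxrg (1.28). The receptor gene Rarg was lower (-1.19), with 23.6 to 38.2 CPM in PA1 and 9.80 to 18.9 CPM in PA2. Of 21 genes of the pathway tested, 8 were called higher and 4 lower, beside 12.1% and 12.5% of all genes. Their median was 0.31, and the fit of the compared libraries called 4 higher and 2 lower.

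Sarcomere genes were higher in PA2, nearly without exception. Of 18 cardiac contractile genes tested, 17 were called higher in PA2 and none lower, beside 12.1% and 12.5% of all genes. Their median was 3.20, and Tnni3 was not called. Myl7, the atrial myosin light chain, had 0.763, 2.38, 8.07 and 2.33 CPM in PA1 and 153, 115, 17.1 and 112 CPM in PA2 (log2 difference 4.41, SE 0.93). Tnnt2, cardiac troponin T, had 0.763, 1.99, 4.98 and 1.64 CPM in PA1 and 91.1, 48.6, 8.33 and 58.3 CPM in PA2 (3.72, SE 0.84). Actc1, cardiac actin, had 3.82, 5.30, 23.0 and 5.30 CPM in PA1 and 242, 152, 18.2 and 279 CPM in PA2 (3.85, SE 0.99). PA2 of embryo 3 was the lowest PA2 library for all 3 and PA1 of embryo 3 the highest PA1 library, so the arches overlapped for Actc1. Without PA2 of embryo 3 the differences were 5.11, 4.42 and 4.73, the 17 calls stood and the median was 3.95.

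The muscle chaperone gene Unc45b (3.87) and the muscle methyltransferase gene Smyd1 (3.61), which act in sarcomere assembly, had the same profile over the libraries, with 10.8 and 19.3 CPM in PA2 of embryo 3 against 48.2 to 96.1 and 64.6 to 106 CPM in the other PA2 libraries. Of 20 genes of cranial mesoderm and second heart field, 8 were called higher and 2 lower, beside 12.1% and 12.5% of all genes. Their median was 0.54, and the fit of the compared libraries called 6 higher and 1 lower. The zinc finger genes Gata5 (2.41), Gata6 (2.28) and Gata4 (1.70) were higher, with Gata5 at 5.10 to 11.9 CPM in PA1 and 25.3 to 91.1 CPM in PA2. Tcf21, a basic helix-loop-helix gene of arch muscle precursors, had 11.1 to 15.3 CPM in PA1 and 29.0 to 45.4 CPM in PA2 (1.43), whereas its relative Msc was lower (-0.80). The myogenic genes Myf5 and Myod1 were not called (0.51 and -0.07). How much of these differences comes from heart tissue beside PA2 was not tested.

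**Figure D3:**
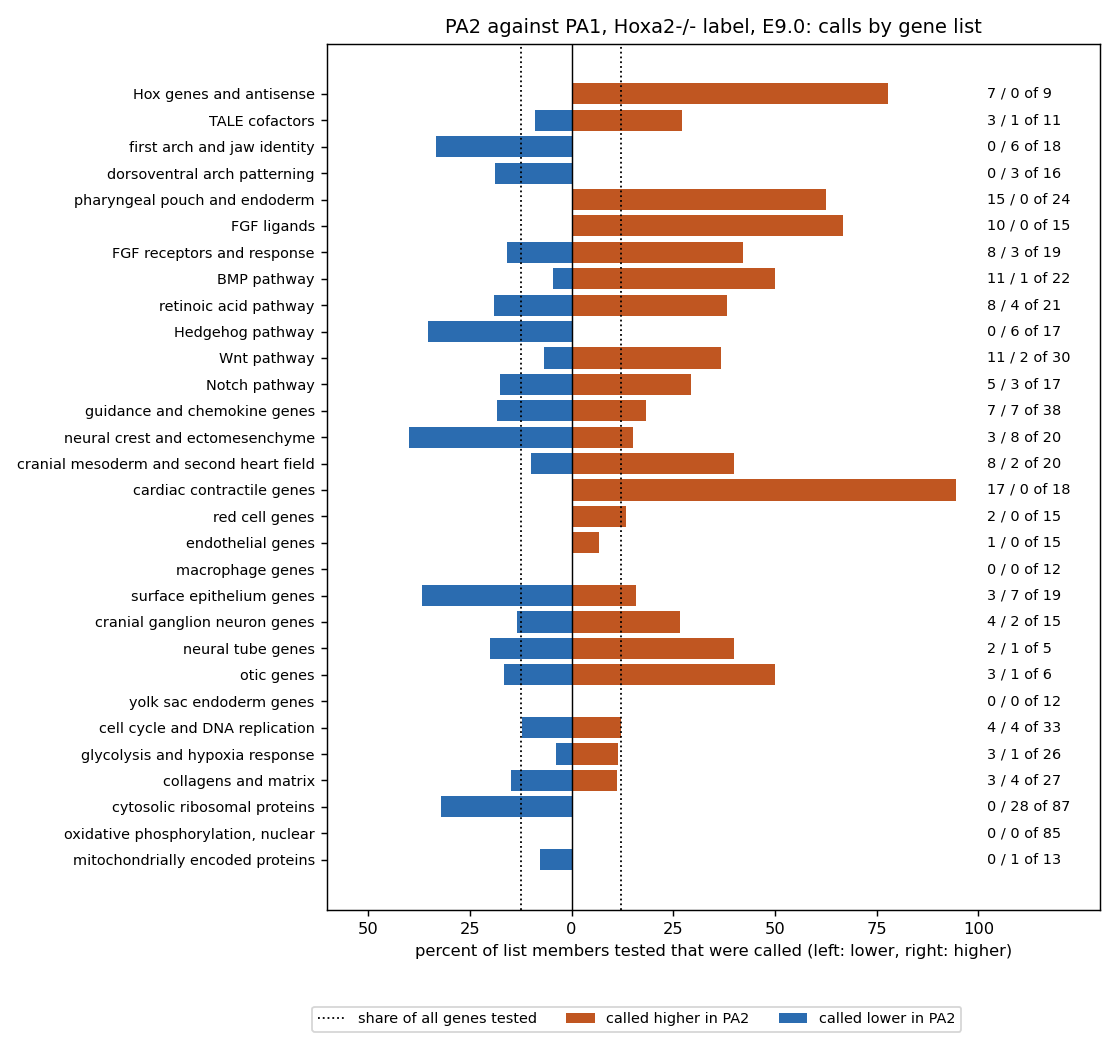
Share of the tested members of each of 30 gene lists that were called higher (right) or lower (left) in PA2, with the numbers at the right and dotted lines at the shares of all genes tested, 12.1% and 12.5%. Cardiac, Hox, FGF ligand and pouch lists reach farthest to the right, and neural crest, surface epithelium, Hedgehog and jaw lists farthest to the left.

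A subset of jaw and PA1 identity genes was lower in PA2. Of 18 tested, 6 were called lower and none higher, beside 12.5% and 12.1% of all genes, with a median of -0.22. The counts were 4 and none in the fit of the compared libraries, and 3 and none without PA1 of embryo 2. Otx2, a head homeobox gene, had 26 to 38.2 CPM in PA1 and 7.48 to 19.1 CPM in PA2 (-1.17, SE 0.26). Lhx8 and Gsc, homeobox genes of jaw mesenchyme, were low and lower in PA2 (-1.04 and -0.92). Msx1, Msx2, Alx1, Alx4, Six2, Shox2 and Nkx3-2 were among those that did not pass the test.

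Barx1, a homeobox gene of jaw and tooth mesenchyme, split the PA1 libraries. It had 5.95, 67.6, 5.78 and 54.4 CPM in PA1 of embryos 1 to 4 and 6.48, 6.74, 1.14 and 4.25 CPM in PA2. PA1 of embryos 2 and 4 was far above PA1 of embryos 1 and 3, which overlapped PA2. The log2 difference was -2.03 (SE 0.55, adjusted p = 0.0043, limma), and it was not called in the fit of the compared libraries (adjusted p = 0.16). Dlx6os1 had 8.78, 43.1, 10.46 and 51.8 CPM in PA1 and 0.767, 8.13, 1.04 and 3.78 CPM in PA2 (-2.67, SE 0.41), and Epha3 had 6.49, 30.7, 9.46 and 33.4 CPM and 2.05, 8.87, 0.852 and 8.58 CPM (-1.83, SE 0.38). In 11 of the 15 genes with the largest difference toward PA1, embryos 2 and 4 both exceeded embryos 1 and 3 in PA1, and in 9 of the 15 they did so in PA2 too. Xist was low in embryos 1 and 4 and high in embryos 2 and 3. Embryo 3 was the lowest PA1 library for 7 of the 15 genes and the lowest PA2 library for 8. Embryo 1 was the lowest for 5 in PA1 and 5 in PA2. The cause of this order was not tested.

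Dorsoventral patterning genes of the arches included 3 called lower in PA2 of 16 tested and none higher, beside 12.5% and 12.1% of all genes. Their median was -0.24. None was called in the fit of the compared libraries, while with the embryo block 5 were called lower and 1 higher. The 3 called lower in the main fit were Dlx3 (-1.53), Dlx5 (-1.22) and Dlx6 (-0.97), homeobox genes of the lower part of an arch under endothelin control. In the fit of the compared libraries their adjusted p was 0.061, 0.11 and 0.18 (limma). Dlx5 had 46.0, 75.7, 40.3 and 66.2 CPM in PA1 and 8.61, 43.8, 22.9 and 31.8 CPM in PA2.

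The epidermal genes Trp63, Krt14 and Fam83f were lower in PA2. Trp63, the master transcription factor of stratified epithelium, had 52.4, 81.8, 47.2 and 99.3 CPM in PA1 and 8.86, 23.0, 9.84 and 14.3 CPM in PA2 (log2 difference -2.27, SE 0.22, adjusted p = 4.2e-12, limma). Krt14, a basal keratin and a known target of p63, had 5.73, 8.61, 3.88 and 10.8 CPM in PA1 and 0.0852, 0.986, 0.379 and 1.11 CPM in PA2 (-2.31, SE 0.25). Fam83f had 10.8, 23.9, 6.67 and 22.8 CPM in PA1 and 2.22, 2.38, 1.42 and 1.85 CPM in PA2 (-2.37, SE 0.24). The arches did not overlap for any of the 3. Of 19 surface epithelium genes tested, 7 were called lower and 3 higher, beside 12.5% and 12.1% of all genes, with a median of -0.33. The summed level of the list was 1125 to 1292 CPM in PA1 and 1114 to 1611 CPM in PA2. The members called higher, Cldn4 (1.07), Cldn6 (0.59) and Epcam (0.55), are also made by endoderm, and the pan-epithelial genes Krt8, Krt18 and Cdh1 were not called.

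Of 20 genes of neural crest and its mesenchyme tested, 8 were called lower and 3 higher, beside 12.5% and 12.1% of all genes. The number called higher was thus near the share of all genes. Their median was -0.44. The fit of the compared libraries called 3 lower and 2 higher, beside 1.54% and 4.49% of all genes. Prrx1, a homeobox gene of arch mesenchyme, had 60.0, 88.6, 67.8 and 94.7 CPM in PA1 and 16.7, 47.6, 19.0 and 35.9 CPM in PA2 (log2 difference -1.46, SE 0.22). Sox9, the regulator of cartilage fate, had 86.3 to 118 CPM in PA1 and 30.9 to 60.8 CPM in PA2 (-1.13, SE 0.19). The receptor genes Pdgfra (-0.84) and Pdgfrb (-0.95) and Twist1 (-0.66) were also lower. Sox10, the marker of migrating crest, was not called (0.15), and Crabp1 (0.96) and Foxc2 (0.90) were higher.

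Of 17 Hedgehog pathway genes, 6 were called lower in PA2 and none higher, beside 12.5% and 12.1% of all genes. Their median was -0.39, and the fit of the compared libraries called 2 lower. Gas1, which encodes a co-receptor, had 134, 187, 140 and 163 CPM in PA1 and 96.9, 92.1, 86.7 and 101 CPM in PA2 (log2 difference -0.71, SE 0.14), so that the arches did not overlap. Foxd2 (-1.18), Foxd1 (-1.13) and Gli3 (-0.96) were the others with the largest differences. Without PA2 of embryo 3, 3 genes were called, and Foxd1 was among those lost. The ligand gene Shh and the target genes Ptch1 and Gli1 did not pass the test (0.23, -0.43 and -0.44).

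Among 30 Wnt pathway genes, 11 were called higher and 2 lower, beside 12.1% and 12.5% of all genes, with a median of 0.39. The fit of the compared libraries called 6 higher and 1 lower. Wnt4 had 14.8, 25.7, 17 and 20.4 CPM in PA1 and 2.98, 7.06, 6.91 and 11.5 CPM in PA2 (log2 difference -1.42, SE 0.20). Wnt5a was also lower (-1.27), with overlap between the arches, and Wnt11 was higher (2.09), with 2.2 to 4.58 CPM in PA1 and 6.44 to 28.5 CPM in PA2. Wnt2 rested on the PA2 library of embryo 4, at 48.4 CPM against 3.53 to 9.29 CPM in the other PA2 libraries. Of 17 Notch genes, 5 were called higher and 3 lower, beside 12.1% and 12.5% of all genes. In the fit of the compared libraries 2 Notch genes were called higher and 1 lower. The target gene Hey1 had the largest difference of those called, with 36.3 to 41.6 CPM in PA1 and 89.3 to 106 CPM in PA2 (1.29, SE 0.17).

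Guidance genes, which encode the ligands and receptors that steer axons and migrating cells, went both ways: of 38 tested, 7 were called higher and 7 lower, against 2 and 4 in the fit of the compared libraries and 11 and 5 without PA2 of embryo 3. All genes tested had shares of 12.1% called higher and 12.5% lower, or 4.49% and 1.54% in the fit of the compared libraries. Semaphorin ligand genes were opposed. Sema3e had 11.1, 24.4, 16.5 and 17.7 CPM in PA1 and 1.28, 2.55, 1.32 and 11 CPM in PA2 (log2 difference -2.20, SE 0.38), and Sema3a had 103 to 125 and 24.6 to 53.7 CPM (-1.39, SE 0.19), while Sema3c was higher in PA2 (1.28) with 14.7 CPM in embryo 3 and 39.9 to 61.1 CPM in the other PA2 libraries. Ntn1 had 6.03, 6.29, 5.78 and 2.71 CPM in PA1 and 0.767, 0.986, 0.379 and 0.554 CPM in PA2 (-1.86, SE 0.36). Efna1, an ephrin ligand gene, was higher (1.39), and the Slit receptor genes Robo1 (-1.11) and Robo2 (-0.94) were lower.

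Markers of other cell types that a dissected arch could hold were counted in the same way. The shares of all genes tested were 12.1% called higher and 12.5% lower. Of 15 red cell genes, 2 were called higher in PA2 (none in the fit of the compared libraries or without PA2 of embryo 3, and 14 with the embryo as a block; 0 to 6 with single libraries left out), with a median of 1.11 and sums of 664 to 2879 CPM in PA1 and 2251 to 4716 CPM in PA2. Among 15 endothelial genes 1 was called, Pecam1 (0.70), and none in the fit of the compared libraries. Without PA2 of embryo 3, 3 endothelial genes were called, and their median went from 0.24 to 0.49. The sums were 417 to 521 CPM in PA1 and 307 to 692 CPM in PA2, the lowest in PA2 of embryo 3. No macrophage gene of 12 and no yolk sac endoderm gene of 12 was called by limma, but edgeR called 6 of the latter higher, limma called 3 with the embryo block and 7 without PA2 of embryo 2, and their median of 0.82 was 0.07 without PA2 of embryo 3. Of 15 cranial ganglion neuron genes, 4 were called higher and 2 lower, against 2 and none in the fit of the compared libraries and 2 and 2 without PA2 of embryo 3. Neurog2, which starts neuron formation in ganglia, had 0 to 0.382 CPM in PA1 and 1.79, 1.23, 8.61 and 0.554 CPM in PA2 (1.46). PA2 of embryo 3 was far above the other PA2 libraries, so the size of this difference rests in part on it.

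Of 87 ribosomal protein genes, 28 were called lower in PA2 and none higher, beside 12.5% and 12.1% of all genes. Their median was -0.24. None was called in the fit of the compared libraries, and the count was 54 without PA2 of embryo 3 and 2 without PA2 of embryo 4, so it rests on which libraries are kept. Their summed level was lowest in PA2 of embryos 1, 4 and 2 and highest of all 8 libraries in PA2 of embryo 3. None of 85 nuclear genes of oxidative phosphorylation was called, against 5 called lower without PA2 of embryo 3, 4 called higher without PA2 of embryo 1 or 2, and 2 called higher with the embryo block. Of 33 cell cycle genes 4 were called higher and 4 lower, shares close to those of all genes, against 1 and 1 in the fit of the compared libraries. Cdkn1c, which encodes an inhibitor of the cell cycle, had 74.1 to 110 CPM in PA1 and 195 to 293 CPM in PA2 (1.33, SE 0.19).

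The question of what the Hoxa2-/- label changes at this stage was asked by comparing the arch difference with that of wildtype at E9.0. In wildtype, 3454 genes differed between the arches (18.7%), 10.2% higher and 8.53% lower in PA2. Of the calls under the Hoxa2-/- label 2295 were called the same way in wildtype, 50.7% of the former and 66.4% of the latter, and none was called the opposite way. Of the 602 genes at least 1 apart, 515 were also called the same way in wildtype, among them all 30 genes with the largest differences.

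In the test of the difference itself 0 genes passed by limma (0%), by edgeR or in the fit of the compared libraries. Of 18428 genes, 1083 had an unadjusted p under 0.05 by limma and 1125 by edgeR. A share of about 0.05 of the genes has such a p even with no true difference. With the embryo as a block 3 genes passed, mt-Co3 (-0.71), Gm13341 (-0.69) and Gm28661 (-0.73), all with a difference lower than in wildtype. Summed over the mitochondrially encoded protein genes, PA1 had 3460 to 4058 CPM under the Hoxa2-/- label and 4708 to 5899 CPM in wildtype. PA2 had 2696 to 3812 CPM and 5461 to 6672 CPM in the same order. The labels thus differed in both arches, and the cause was not tested. For the 30 named genes the difference between labels ran from -0.85 to 1.77, with standard errors of 0.24 to 1.28, so the error left room for sizable changes of single genes. Car7 was at the upper end, with an arch difference of 3.87 under the Hoxa2-/- label and 2.1 in wildtype, and it did not pass (adjusted p = 0.82, limma). Pitx1 had -3.25 and -3.90, Ntn1 -1.86 and -1.16 and Dnm3os -1.77 and -0.92 in the same order, and none of them passed. The genes with the lowest p were Shroom1, Cmtm3 and Gm45246 (each adjusted p = 0.82).

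**Figure D4:**
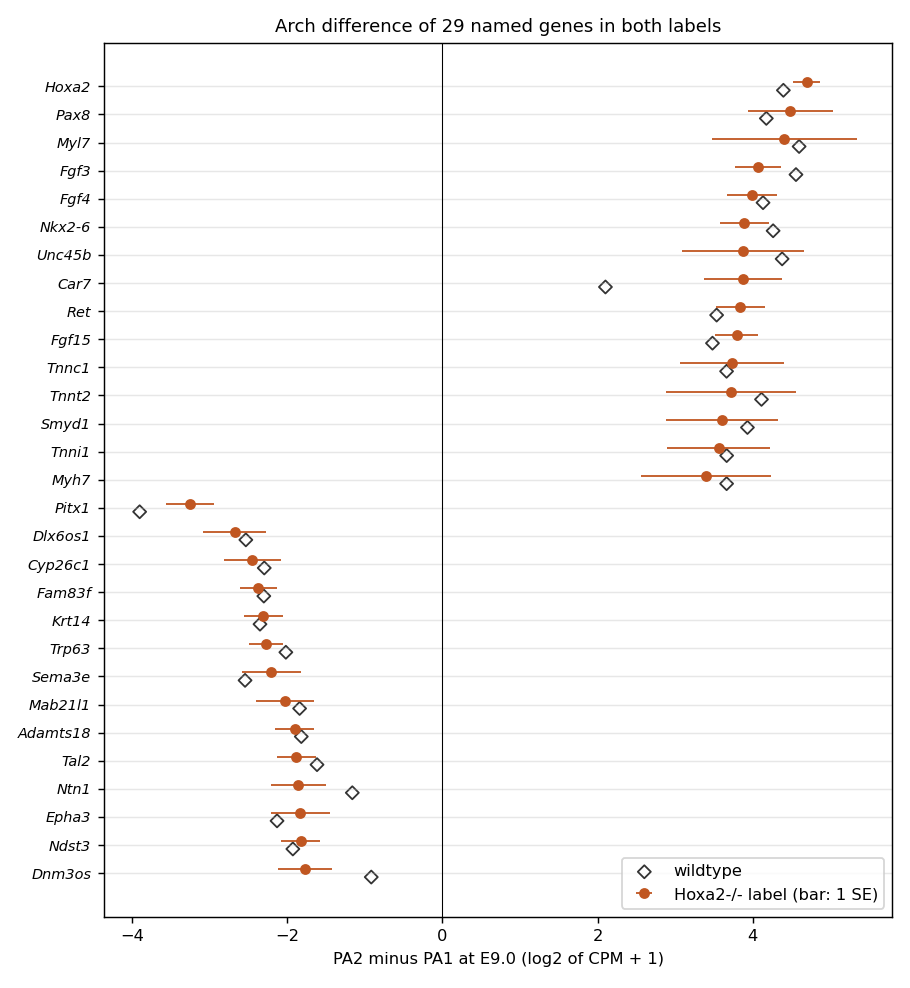
Arch difference, PA2 minus PA1 on the log2(CPM + 1) scale at E9.0, for 29 of the named genes under the Hoxa2-/- label (filled points with 1 SE) and in wildtype (open diamonds). All 29 have the same sign in both, and Car7 shows the widest gap, 3.87 against 2.1.

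Against the same label at E9.5, the arch difference changed for 187 genes (1.01%), 86 more toward PA2 at E9.0 (0.467%) and 101 more toward PA1 (0.548%). The count was unstable: 4 genes passed in the fit of the compared libraries, 875 with the embryo block, and 67 to 853 when single libraries were left out. The 4 genes were Rarres1, Heyl, Cp and Myot. Heyl, a Notch target gene of vessel-wall cells, had 9.57 ± 3.08 CPM in PA1 and 5.52 ± 1.71 CPM in PA2 at E9.0 (SD, n = 4 each), and 5.22 ± 1.71 and 21.2 ± 6.25 CPM at E9.5 (SD, n = 5 each). The arch difference thus turned from -0.69 to 1.84, a change of -2.53 (SE 0.34, adjusted p = 5.7e-06, limma). Rarres1, a gene induced by retinoids, had no called arch difference at E9.0 (0.39) and one of 3.46 at E9.5, where PA2 had 16.7 ± 10.9 CPM (SD, n = 5) and PA1 0.448 ± 0.252 CPM. Cp, ceruloplasmin, went from -0.68 to 1.61.

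Hoxb1 was more toward PA2 at E9.0 than at E9.5, by 2.06 (SE 0.36, adjusted p = 0.00082, limma). Its PA2 level was 6.26 ± 2.22 CPM (SD, n = 4) at E9.0 and 0.979 ± 0.944 CPM (SD, n = 5) at E9.5, where the arches did not differ (0.34). The homeobox gene Gbx2 (2.05), the gut hormone gene Pyy (2.27), Ret (1.71) and Hand2os1 (1.80) also had arch differences further toward PA2 at E9.0. Meox2, a homeobox gene of mesoderm, was lower in PA2 at E9.0 (-1.56) and not at E9.5 (0.32). None of these 6 passed in the fit of the compared libraries, where Pyy came closest (adjusted p = 0.051, limma), Pyy, Hoxb1 and Ret did not pass by edgeR, and Ret did not without PA2 of embryo 3.

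At later stages of the same label fewer genes parted the arches: 1766 at E9.5 (9.58%, with 6.12% higher and 3.47% lower in PA2), 779 a step later at E10.0 (4.23%, with 3.13% and 1.1%) and 252 in embryos of E10.5 (1.37%, with 0.982% and 0.385%). The groups differ in size. Of the calls at E9.0, 984 were called the same way at E9.5 (21.7% of the E9.0 calls and 55.7% of the E9.5 calls), 406 at E10.0 (8.97% and 52.1%), then 106 at E10.5 (2.34% and 42.1%). Genes called the same way at all 4 stages numbered 77 higher and 11 lower in PA2. Among the 30 named genes these included Hoxa2, Nkx2-6, Fgf3, Fgf4 and Fgf15 toward PA2 and Pitx1, Fam83f and Krt14 toward PA1.

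The arch difference of Hoxa2 was 4.70, 5.47, 6.17 and 6.60 from E9.0 on, in the order of the stages, and its PA2 level was 28.7 ± 8.41 CPM (SD, n = 4) at E9.0 and 132 ± 15.8 CPM (SD, n = 3) at E10.5. The Fgf3 difference was 4.07, 4.03, 2.90 and 1.88 over these stages, and Krt14 had -2.31, -2.52, -2.73 and -2.65. In contrast Myl7 had 4.41, 2.52, 0.57 and 0.36, Ret had 3.84, 2.13, 0.64 and 0.29, and Cyp26c1 had -2.45, -1.43, -0.68 and 0.04, the last 2 values of each not called. Of the 602 genes at least 1 apart at E9.0, 272 were called at no later stage of this label, 179 of them higher in PA2. Only the step from E9.0 to E9.5 was tested as a change.

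**Figure D5:**
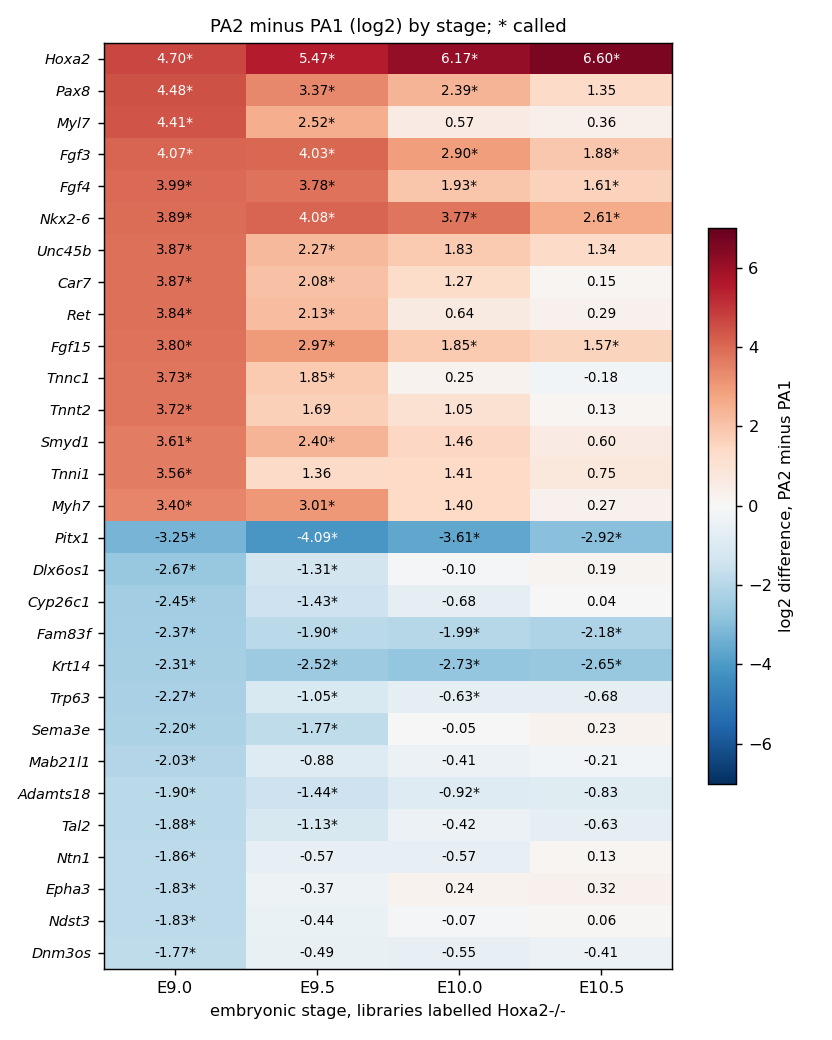
Arch difference, PA2 minus PA1 on the log2(CPM + 1) scale, of 29 of the named genes at 4 stages in libraries labelled Hoxa2-/-, with an asterisk where called. Hoxa2, Nkx2-6, Pitx1, Fam83f, Krt14 and the 3 FGF genes are marked at every stage, while most sarcomere genes are marked at E9.0 and E9.5.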

How the data were processed

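SMART-seq v4 and Nextera XT libraries of polyadenylated RNA from hand-dissected arches gave the data. The authors deposited 1 table of 21948 genes in 68 libraries, whose signal values behave as CPM on scaled library sizes: whole reads were recovered for 100% of values (tolerance 0.1 reads), so column totals run from 926298 to 1051959 CPM. Per the submitters' processing notes, bcl2fastq 2.18, TopHat2 2.1.1, R 3.3.2 and the build mm10 were used. The counting program, its annotation and its strand setting are not given in the sources used here.

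Genes with at least 1 CPM in at least 3 libraries (18428) were tested with limma 3.58.1 (R 4.3.3) on log2(CPM + 1), with a trended prior and Benjamini-Hochberg adjustment. The 2 further tests took the arch difference minus that of wildtype at E9.0, and minus that of the same label at E9.5. edgeR 4.0.16 on recovered reads, an embryo block, other pseudocounts, filters and scalings, the compared groups alone and left-out libraries were alternatives. The scripts were tested on simulated data and ran in Python 3.11.15.

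Equal replicate numbers come from the same embryo, per the series text. Deviations from group means correlated at 0.268, 0.187, 0.0766 and 0.159 between arches of the same number and at -0.163 to 0.12 between others.

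Text genes are Hoxa2, the 3 markers, the 15 largest called differences each way (same sign in 4 embryos, mean of at least 5 CPM in the higher arch), up to 4 called members a list and up to 5 genes each way per further test. Other list members were named after their values were seen. Members and lists were chosen with earlier results of these data known. Some genes are not reported here.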

Additional observations from a re-analysis of the deposited data

Results flagged for a closer look

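Of 296 groups of 4 values, 26 (8.78%) had a highest or lowest value far from the other 3. The cutoff used flags about 1 in 20 groups when values are independent and normally spread. These groups share libraries, and some flagged values are a few reads beside values of 0. The share therefore cannot be read as an excess over chance. In PA1 of embryo 3 the far values were Hoxa2 at 0.398 CPM, Pax8 at 4.88 CPM, Fgf3 at 3.48 CPM, Fgf4 at 1.39 CPM, Actc1 at 23 CPM and the summed cardiac genes at 106 CPM, all high. In PA2 of embryo 3 they were Tal2 at 0.568 CPM, Spry2 at 12.7 CPM, Sema3a at 24.6 CPM, Gata1 at 16.6 CPM, Cldn4 at 46.9 CPM, Neurog2 at 8.61 CPM, the summed dorsoventral genes at 480 CPM and the summed yolk sac genes at 515 CPM. In PA2 of embryo 4 they were Fgf3 at 19 CPM, Sema3e at 11 CPM, Cyp26b1 at 3.88 CPM, Wnt2 at 48.4 CPM and Sparc at 519 CPM. The others were Pax8 at 75 CPM in PA2 of embryo 1, Ntn1 at 2.71 CPM and Nkx2-1 at 0.378 CPM in PA1 of embryo 4, Hoxaas2 at 0.0662 CPM and Meox2 at 9 CPM in PA1 of embryo 2, and Otx1 at 5.95 CPM and Pyy at 0.153 CPM in PA1 of embryo 1.

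The arch difference of 21 named genes changed between E9.0 and E9.5 of the same label in the limma test of the change itself. Some of them were named because they passed it, and of the 21 only Rarres1, Heyl and Cp passed in the fit of the compared libraries, where Rarres1 alone passed with the embryo block. Those further toward PA2 at E9.0 were Pyy (2.27), Hoxb1 (2.06), Gbx2 (2.05), Cyp2s1 (1.86), Hand2os1 (1.80), Ret (1.71) and Cdkn1c (0.94). Those further toward PA1 at E9.0 were Rarres1 (-3.07), Heyl (-2.53), Cp (-2.28), Meox2 (-1.89), Cdh19 (-1.83), Fabp7 (-1.50), Foxd2 (-1.41), Ndst3 (-1.39), Trp63 (-1.22), Pdgfrb (-1.14), Six4 (-1.09), Cdkn1a (-1.09), Wnt5a (-1.06) and Gli3 (-0.93).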

How the results depend on the processing

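The count of 4527 genes that part the arches was 1110 when the fit held the compared groups alone, and 1099 of those calls are shared by limma, the embryo block and that fit. It was 5902 with the embryo block, 1032 with the block in the compared groups and 1013 by edgeR with the block there. Left-out libraries gave 3577 to 4882, and leaving out both arches of embryo 3 gave 3287, which shared 60.8% of the 4527 calls. The 602 genes at least 1 apart were 1036 with a pseudocount of 0.25, 209 with a pseudocount of 5, 1141 by edgeR on its own log2 scale and 575 to 768 with libraries left out. Against wildtype 0 genes passed, 3 with the embryo block. Against E9.5 the 187 genes were 4 in the compared groups, 875 with the embryo block, 1 with the block in the compared groups, 1 by edgeR there, 60 without embryo 3 and 67 to 853 with libraries left out, the lowest without PA1 of embryo 1 and the highest without PA2 of embryo 1. The cause was not tested. No named gene reversed, and 42 of 118 were no longer past the threshold with only the compared groups. With the block Heyl lost its call between the arches, Cmtm3 and Cdh19 gained one, and no other call of the 118 genes changed. With 4 embryos, moderate differences and genes under 3 reads are beyond the precision of these data.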
